A study of Mus musculus with 8 samples.

Results

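Mitochondrial fusion and fission were followed through 9 genes, Mfn2, Mfn1, Opa1, Oma1, Dnm1l, Fis1, Mff, Mief1 and Mief2, in C2C12 mouse muscle cells with reduced DOR. All probe sets that the platform annotation gives to one of these symbols alone were taken, which gave 22 of the 45037 probe sets tested, and 9 of 18193 named genes. The 8 arrays hold 4 cultures with lentiviral DOR siRNA, which targets Trp53inp2, and 4 cultures with lentiviral scrambled RNA. C2C12 is an established myoblast line that fuses into myotubes in low serum. Per the labels, both groups received virus at an moi of 100, grew for another 5 to 7 days, were sorted for GFP to a purity of 93 to 99% and spent 4 days in 5% horse serum. The labels name a single siRNA design and 1 cell line, and other labels call the same samples confluent myoblasts, so the stage at harvest is not settled. The cultures are called biological replicates without a statement of how they were derived, so p-values measure the spread between these cultures, which may be partly technical.

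Mitochondria continually join and divide. Mitofusins 1 and 2, the products of Mfn1 and Mfn2, are GTPases that join outer membranes, and mitofusin 2 is also known at contacts with the endoplasmic reticulum. OPA1 joins inner membranes and keeps the cristae in shape, and the protease OMA1 cuts it under stress. DRP1, the product of Dnm1l, is a cytosolic GTPase that constricts the organelle after it is recruited by the outer membrane proteins MFF, FIS1, MiD51 (Mief1) and MiD49 (Mief2). In muscle these proteins shape the mitochondria between the myofibrils, and in humans MFN2 is known to be lower in skeletal muscle of people with obesity or type 2 diabetes.

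All values are log2 RMA expression values per probe set, and differences are DOR siRNA minus scrambled on that scale with the standard error of the limma model. A call is a limma p adjusted by Benjamini-Hochberg over all 45037 probe sets under 0.05. In the whole series 3.22% of probe sets passed, 1.19% lower and 2.04% higher. With the replicate number as a block 2827 probe sets passed, against 1452 without it. The knockdown was visible in the brighter probe set of Trp53inp2, which lay between 9.18 and 9.93 in the DOR siRNA arrays, against 10.92 to 11.55 in the scrambled ones, a 3.56-fold decrease (limma adjusted p = 0.00087). The dimmer probe set of Trp53inp2 did not pass (difference 0.14 ± 0.08, limma adjusted p = 0.52). It averaged 8.15 in DOR siRNA and 8.01 in scrambled, both above the median of all probe sets, and showed no decrease. Which stretch of the transcript this probe set covers could not be checked. As the mean over both probe sets Trp53inp2 differed by -0.85 (limma adjusted p = 0.0030). The muscle markers Myod1, Des, Myog and Cdh15 were 4 of 4 above 6.18, the median of all probe sets, and 4 of 4 measured adipocyte markers were under it. Of the measured fibroblast markers 4 of 6 were also above it, and of the osteoblast markers 2 of 3. This level alone thus does not set muscle apart from those lists.

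With the group alone in the model, 1 of the 9 genes changed past the threshold, against 4.56% of all genes by brightest probe set. Mfn2 fell, while 21 of the 22 probe sets did not pass, and 0 rose past it. In that fit 1.19% of all probe sets were lower past the threshold and 2.04% higher. With the replicate number as a block 2 of the 22 passed, both lower, the same Mfn2 probe set and 1428086_at of Dnm1l, against 2.81% of all probe sets lower in that fit. By direction 17 of the 22 differences were negative and 5 positive, with a median of -0.12, against a median of 0.00 and 49.3% negative over all probe sets. In 7 of the 22 the 4 DOR siRNA values lay wholly below the 4 scrambled ones, and in 0 wholly above. For all probe sets the share wholly below was 4.05% and wholly above 5.8%, and the share wholly below was 6.24% among those whose mean reached 6.18. At an unadjusted p under 0.05 there were 6 of the 22, against 15.3% of all probe sets. Probe sets of 1 gene share their transcripts, so the 22 are not independent of one another. In 18 of the 22 the higher group mean reached 6.18. The other 4, which were 1419997_at of Mfn1, 1451900_at of Mfn2, 1428008_at of Dnm1l and 1457371_at of Mff, were not shown to be above background.

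**Figure D1:**
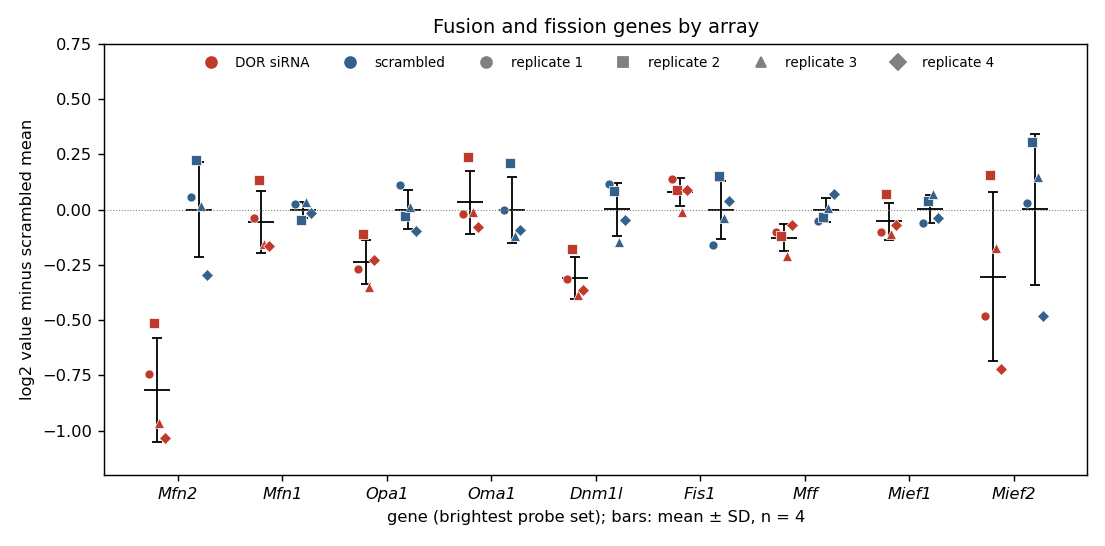
Log2 value of each array minus the scrambled mean (y axis) for the brightest probe set of each of the 9 genes (x axis), DOR siRNA in red left of scrambled in blue, with marker shapes for replicates 1 to 4 and bars for mean ± SD (n = 4). For Mfn2 the DOR siRNA points lie wholly below the scrambled ones, with a mean difference of -0.82, and for Opa1, Dnm1l and Mff they lie below by less.

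Mfn2 and Mfn1 are paralogs with the same outer membrane role, but a probe set of Mfn2 passed and none of Mfn1 did. To show what stands upstream of each, the 250 bases before the annotated start are printed from RefSeq (GRCm38.p6), 5′ to 3′ on the gene's strand, for Mfn2 at chr4:147904910-147905159 (minus strand) and for Mfn1 at chr3:32529232-32529481 (plus strand). Capitals mark matches, on either strand, to the ETS core CCGGAAG and the GC box GGGCGG.
Mfn2: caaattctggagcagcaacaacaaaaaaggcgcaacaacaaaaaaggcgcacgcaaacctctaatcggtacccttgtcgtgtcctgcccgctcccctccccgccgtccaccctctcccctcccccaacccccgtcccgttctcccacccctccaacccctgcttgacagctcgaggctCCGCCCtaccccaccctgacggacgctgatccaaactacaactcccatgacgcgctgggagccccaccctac
Mfn1: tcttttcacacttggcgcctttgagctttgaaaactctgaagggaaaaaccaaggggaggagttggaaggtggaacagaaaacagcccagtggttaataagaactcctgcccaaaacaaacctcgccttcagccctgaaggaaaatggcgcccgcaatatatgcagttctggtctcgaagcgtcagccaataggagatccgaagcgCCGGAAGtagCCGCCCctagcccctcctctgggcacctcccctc
The window of Mfn2 held 1 GC box and no ETS core, and that of Mfn1 held 1 of each, which did not overlap. The table lists 3 starts for Mfn2, and the other windows held no match to any of the 6 motifs searched. The ETS core was found in 3 of the 14 windows of the 9 genes and in 6.91% of all 32851 windows of this length. A GC box was found in 12 of the 14, against 32.7% of all. The 14 windows are not independent, since the 2 of Mff overlap and hold the same GC box, and windows of Mfn2 overlap too. The NRF1 core GCATGCG (3.02% of all windows) was found in 1, of Opa1, and the E box CAGCTG (13% of all) in 1, of Dnm1l. The MEF2 core TAAAAAT (5.92% of all) was found in 2 overlapping windows of Mff, and the ERR core AAGGTCA (4.08% of all) in 0 of the 14. The NRF1 and MEF2 cores replaced longer forms after a first search had been seen, because the longer forms could not be kept with the record of the search. The longer NRF1 form had matched windows of Opa1 and Oma1, and the longer MEF2 form had matched none, so these matches depend on the form chosen. Such a match is a description of these letters and not a shown binding site. Letters farther upstream were not searched, and no link between the windows and the differences was tested.

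The brighter probe set of Mfn2, 1448131_at, read 8.53, 8.76, 8.31 and 8.24 in DOR siRNA 1 to 4, against 9.33, 9.50, 9.29 and 8.98 in scrambled 1 to 4. Every DOR siRNA array was below every scrambled one, the nearest being DOR siRNA 2 and scrambled 4. The mean fell to 8.46 ± 0.23 in DOR siRNA, against 9.27 ± 0.22 in scrambled (SD, n = 4 each). The log2 difference was -0.82 ± 0.13, which is a 1.76-fold decrease (limma adjusted p = 0.010). Replicate 2 was highest and replicate 4 lowest in both groups, and the same-numbered differences were -0.81, -0.74, -0.97 and -0.74. The fall thus varied less between numbers than the level did. The call held whichever array was left out, with differences of -0.92 to -0.74 and limma adjusted p of 0.00456 to 0.0405.

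The dimmer Mfn2 probe set, 1451900_at, did not pass and was not shown to be above background. It read 4.85, 5.15, 5.17 and 5.07 in DOR siRNA 1 to 4, against 5.04, 5.04, 4.99 and 5.26 in scrambled 1 to 4, with overlapping groups and a difference of -0.02 (95% interval -0.23 to 0.19). Both means were below 6.18. Within each array the gap between the brighter and the dimmer probe set averaged 3.40 ± 0.28 in DOR siRNA and 4.19 ± 0.32 in scrambled (SD, n = 4 each). That shift of -0.79 largely restates the fall of the brighter probe set (-0.82), since the dimmer one was not shown to be above background, and it does not test whether the probe sets respond differently. As the mean over both probe sets, Mfn2 differed by -0.42 (limma adjusted p = 0.014).

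Mfn1 had 3 probe sets, and 0 of them passed, nor did any reach an unadjusted limma p under 0.05. The brightest, 1449697_s_at, read 8.89, 9.06, 8.77 and 8.76 in DOR siRNA 1 to 4, against 8.95, 8.88, 8.96 and 8.91 in scrambled 1 to 4. The groups overlapped, and the highest value of all was on DOR siRNA 2. The difference was -0.06 ± 0.08 (95% interval -0.24 to 0.13, limma adjusted p = 0.84). The 2 others differed by -0.12 ± 0.09 (1426773_at) and -0.14 ± 0.10 (1419997_at), also with overlap.

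The log2 difference Mfn2 minus Mfn1 within each array was used to test whether the mitofusins responded unequally. It was -0.36, -0.30, -0.46 and -0.52 in DOR siRNA 1 to 4, against 0.38, 0.62, 0.32 and 0.07 in scrambled 1 to 4. The values did not overlap, and their sign differed between the groups, which has no meaning of its own since 2 probe sets have no common scale. The shift of -0.76 had an exact two-sided permutation p of 0.029, the smallest possible, and 0.043 adjusted over the 3 comparisons. Among the 3 is the comparison of the 2 Mfn2 probe sets, which had the same p and largely restates the fall of Mfn2. Without it in the adjustment the adjusted value would not be under 0.05. Taken over all probe sets of each gene the shift was -0.32, with the same exact permutation p of 0.029. The exact sign-flip test of the 4 numbered pairs cannot go below 0.125, which it reached.

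**Figure D2:**
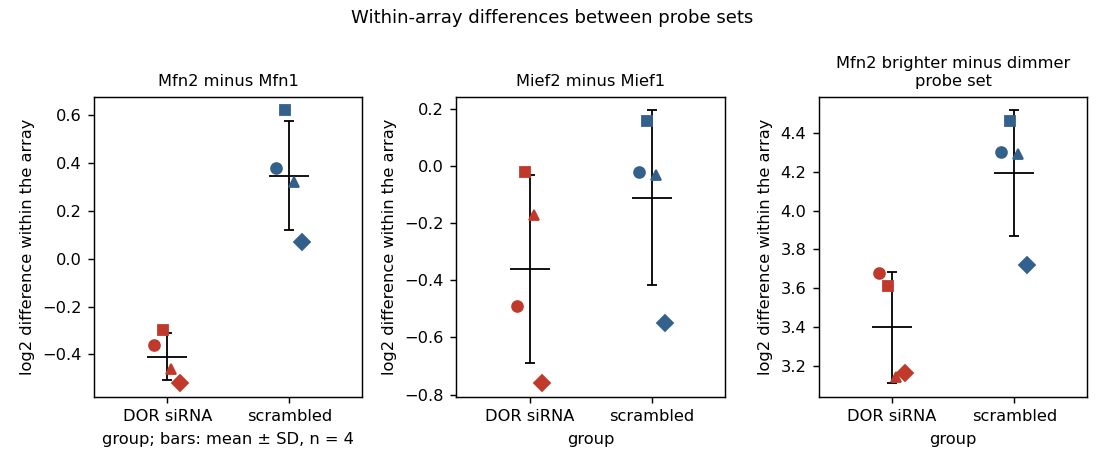
Log2 difference between 2 probe sets within each array (y axis) in DOR siRNA and scrambled arrays (x axis), with circles, squares, triangles and diamonds for replicates 1, 2, 3 and 4 and bars for mean ± SD (n = 4). Mfn2 minus Mfn1 averages -0.41 in DOR siRNA and 0.35 in scrambled without overlap, whereas Mief2 minus Mief1 overlaps between the groups.

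By a rule on likeness, the genes closest to Mfn2 were those whose brightest probe set, centred on its own mean, differed least from 1448131_at over the 8 arrays. Among 11268 genes with a mean at or above 6.18, the closest were Cgref1, Ppfia4, Nrap, Tbc1d8 and Klf5, with root mean square differences of 0.075, 0.077, 0.088, 0.10 and 0.11, against a median of 0.47. Nrap encodes a protein of striated muscle that takes part in myofibril assembly, and Klf5 a zinc finger transcription factor. Nrap read 8.85, 9.15, 8.75 and 8.57 in DOR siRNA 1 to 4, against 9.62, 9.67, 9.52 and 9.17 in scrambled 1 to 4. As for Mfn2, replicate 2 was the highest and replicate 4 the lowest of each group, which follows in part from the rule itself. Cgref1 and Klf5 shared this order, and Ppfia4 and Tbc1d8 did not. Ppfia4 was highest of its group on scrambled 1 (10.08, against 10.04 on scrambled 2). Tbc1d8 was highest of its group on DOR siRNA 1 (9.06, against 9.03 on DOR siRNA 2). This likeness is a description of 8 arrays and carries no test.

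Opa1, the inner membrane fusion GTPase, was lower in each of its 3 probe sets without overlap, but none passed. The share wholly below was 4.05% for all probe sets, and the 3 are not independent of one another. The brightest, 1434890_at, read 10.17, 10.33, 10.09 and 10.21 in DOR siRNA 1 to 4, against 10.55, 10.41, 10.45 and 10.34 in scrambled 1 to 4. A margin of 0.01 log2 units separated DOR siRNA 2 from scrambled 4, and the difference was -0.24 ± 0.08 (95% interval -0.41 to -0.06, limma adjusted p = 0.16). The probe set 1449214_a_at read 7.97, 7.95, 8.08 and 8.03 in DOR siRNA 1 to 4, against 8.30, 8.31, 8.17 and 8.28 in scrambled 1 to 4. Its difference of -0.26 ± 0.07 had a limma adjusted p of 0.084. The third, 1418768_at, differed by -0.37 ± 0.18, and DOR siRNA 2 lay far below the rest there. A margin of only 0.005 log2 units separated its groups, and without DOR siRNA 2 its difference was -0.14. As the mean over the 3 probe sets Opa1 differed by -0.29 (limma adjusted p = 0.055). Oma1, the protease that cuts OPA1, had 1 probe set with overlapping groups, at 8.33 ± 0.14 in DOR siRNA and 8.30 ± 0.15 in scrambled (SD, n = 4 each). Its difference was 0.03 (95% interval -0.19 to 0.25).

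Dnm1l, which encodes the fission GTPase DRP1, had lower means in 3 of 4 probe sets. Its brightest, 1428086_at, read 10.80, 10.94, 10.73 and 10.75 in DOR siRNA 1 to 4, against 11.23, 11.20, 10.97 and 11.07 in scrambled 1 to 4. The groups did not overlap, and all 4 numbered differences were negative, from -0.43 to -0.24. The difference of -0.31 ± 0.09 (95% interval -0.50 to -0.12) did not pass over all 8 arrays without pairing (limma adjusted p = 0.078). With the replicate number as a block it passed (limma adjusted p = 0.042). The probe set 1428087_at differed by -0.37 ± 0.13 (limma adjusted p = 0.17) and 1452638_s_at by -0.79 ± 0.38 (limma adjusted p = 0.36). The fourth, 1428008_at, read 2.57 to 3.02 over the 8 arrays, far below the array medians, and differed by 0.01.

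**Figure D3:**
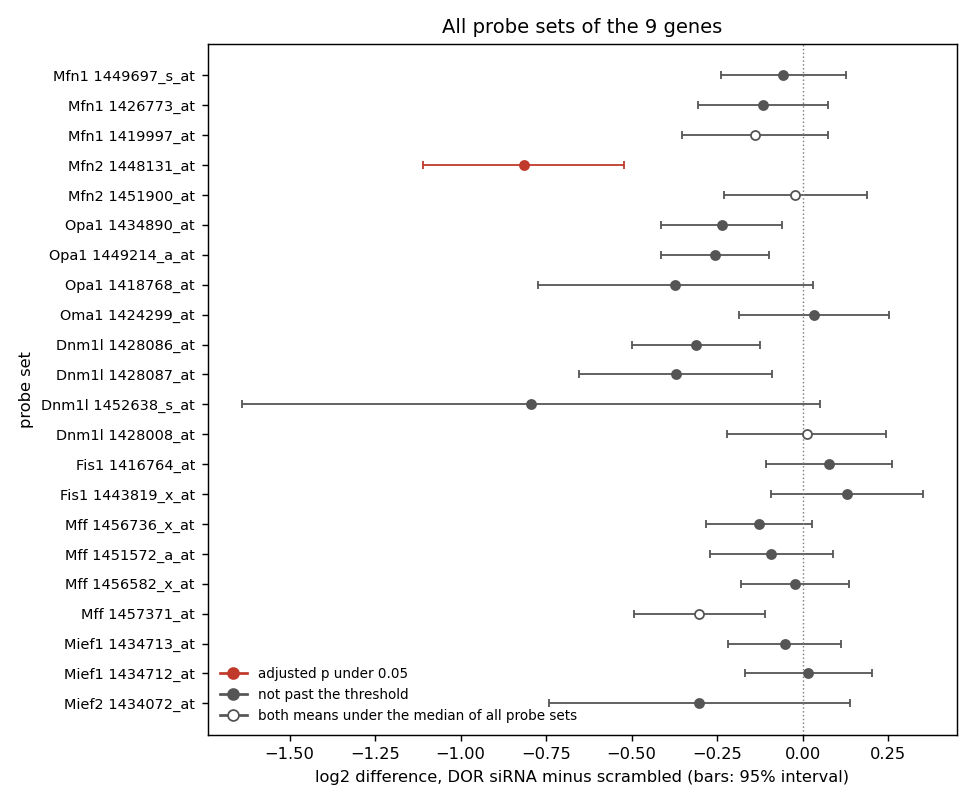
Log2 difference, DOR siRNA minus scrambled, with 95% interval (x axis) for each of the 22 probe sets (y axis), red where the limma adjusted p was under 0.05 and open where both group means were below 6.18. One probe set of Mfn2 passed, and the intervals of 2 Opa1, 2 Dnm1l and 1 dim Mff probe set also lie below 0.

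DOR siRNA 2 stood apart in some probe sets of Dnm1l and Opa1 but not in others of the same genes. In 1452638_s_at of Dnm1l it read 5.99, against 8.05, 7.88 and 8.08 in DOR siRNA 1, 3 and 4 and 8.03 to 8.46 in the scrambled arrays. In 1428087_at it was again the lowest of its group (9.97, against 10.44 to 10.56 in the other 3 DOR siRNA arrays), while in 1428086_at it was the highest. For Opa1 it read 7.19 in 1418768_at, against 8.07, 8.09 and 8.15 in DOR siRNA 1, 3 and 4, and was the highest of its group in 1434890_at. Without DOR siRNA 2 the differences were -0.29 for 1452638_s_at, -0.24 for 1428087_at, -0.36 for 1428086_at and -0.14 for 1418768_at, and limma adjusted p lay between 0.055 and 0.42. Over the 22525 probe sets with a mean at or above 6.18, DOR siRNA 2 was below all other arrays of its group by at least 0.8 in 250. The corresponding number was 104 for scrambled 4, 33 for DOR siRNA 4 and 0 to 3 for each of the other 5 arrays. The 3′ minus 5′ difference of the actin control was 0.29, 0.50, 0.28 and 0.29 in DOR siRNA 1 to 4, against 0.38, 0.40, 0.31 and 0.31 in scrambled 1 to 4. That of the Gapdh control was highest on DOR siRNA 2 too (0.07, against -0.16 to -0.09 on the other 7 arrays). With the actin difference as a covariate, 3 of the 22 probe sets were lower past the threshold, against 2.67% of all probe sets in that fit (1.19% without the covariate). They were the Mfn2 probe set (-0.79, limma adjusted p = 0.0016), 1428086_at (-0.30, 0.034) and 1452638_s_at (-0.88, 0.026). DOR siRNA 2 had both the highest actin difference and the low 5.99 in 1452638_s_at, so that call leans on this array. Without the array, and without the covariate, the limma adjusted p of 1452638_s_at was 0.22. The part of RNA quality in these values was not tested beyond the fit with the covariate.

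**Figure D4:**
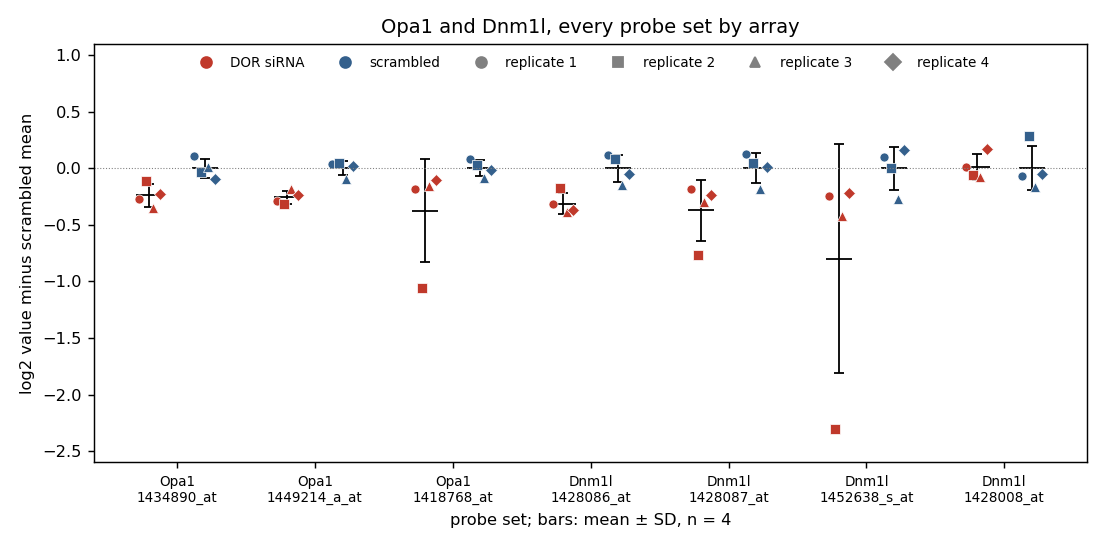
Log2 value of each array minus the scrambled mean (y axis) for the 3 probe sets of Opa1 and the 4 of Dnm1l (x axis), DOR siRNA in red left of scrambled in blue, squares for replicate 2, bars for mean ± SD (n = 4). The red square of DOR siRNA 2 lies far below its group in 1418768_at and 1452638_s_at and above it in the brightest probe set of both genes.

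The outer membrane receptors of DRP1 did not pass in any probe set, and 1 of them, 1457371_at of Mff, had an unadjusted limma p under 0.05. The brightest of 4 Mff probe sets, 1456736_x_at, read 12.52, 12.50, 12.41 and 12.55 in DOR siRNA 1 to 4, against 12.57, 12.59, 12.63 and 12.69 in scrambled 1 to 4. The groups did not overlap, but by a margin of 0.02 log2 units, and the difference was -0.13 ± 0.07 (limma adjusted p = 0.45). The dim 1457371_at of Mff differed by -0.30 ± 0.09, also without overlap (limma adjusted p = 0.093), and the other 2 by -0.09 and -0.02. Fis1 had both of its differences above 0, with overlap. Its brighter probe set averaged 10.62 ± 0.06 in DOR siRNA and 10.54 ± 0.13 in scrambled (SD, n = 4 each), a difference of 0.08 (95% interval -0.11 to 0.26).

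Neither gene of the MiD proteins passed. Mief2 read 8.57, 9.21, 8.88 and 8.33 in DOR siRNA 1 to 4, against 9.08, 9.36, 9.20 and 8.57 in scrambled 1 to 4. The groups overlapped, with replicate 2 the highest and replicate 4 the lowest in both, and the numbered differences were -0.51, -0.15, -0.31 and -0.24. The mean difference of -0.30 ± 0.20 had a limma adjusted p of 0.55, and 0.069 with the replicate number as a block. Leaving out DOR siRNA 4 gave -0.16 and leaving out DOR siRNA 2 gave -0.46. Dropping scrambled 2 gave -0.20 and dropping scrambled 4 gave -0.46. Mief1 differed by -0.05 ± 0.07 and 0.02 ± 0.08 in its 2 probe sets. Mief2 minus Mief1 within each array shifted by -0.25 (exact permutation p = 0.31, also 0.31 adjusted over the 3 comparisons). The shift was -0.12 with DOR siRNA 4 left out, and -0.16 or -0.40 when scrambled 2 or scrambled 4 was dropped.

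Other genes of mitochondrial dynamics were read from their brightest probe sets, for which 4.56% of all 18193 genes passed, 1.45% lower and 3.11% higher. Of 73 further genes listed, 69 were measured. Of these 3 fell, 1 rose and 65 did not pass, with a median of -0.07, against 0.02 for all genes. With the replicate number as a block 6 passed, 5 lower and 1 higher, against 2.81% of all probe sets lower in that fit. The genes added there are not named, and the counts by list rest on the unpaired fit. The number called was 2 in place of 4 without any 1 of DOR siRNA 2, 3 and 4 or scrambled 1, 2 and 3. Among 21 measured genes of inner membrane proteases and cristae 1 fell, Apool, a subunit of the MICOS complex that holds cristae junctions. Apool averaged 9.52 in DOR siRNA and 9.90 in scrambled (difference -0.38 ± 0.09, limma adjusted p = 0.039). The call ended without DOR siRNA 2, 3 or 4 or any 1 of the scrambled arrays (adjusted p of 0.058 to 0.11), and when its probe sets were averaged (-0.27, limma adjusted p = 0.11). Among 15 accessory fission factors 1 rose, Dnm1, a dynamin known best from endocytosis in neurons. Dnm1 read 9.12, 9.64, 9.24 and 9.30 in DOR siRNA 1 to 4, against 8.48, 8.48, 8.68 and 8.54 in scrambled 1 to 4. It rose 1.71-fold (log2 difference 0.78 ± 0.11, limma adjusted p = 0.0051), while its relative Dnm1l did not pass without pairing.

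None of 9 lipid and outer membrane fusion factors passed, the smallest p being those of Pld6 (-0.17 ± 0.08), a phospholipase of the mitochondrial surface, and Mcl1 (-0.16 ± 0.08), of the BCL2 family. Pld6 averaged 4.67 in DOR siRNA and 4.85 in scrambled, both below 6.18, and was not shown to be above background. None of 9 ubiquitin and quality control genes passed either. There Bnip3, a mitophagy receptor, differed by 0.35 ± 0.11 and Fbxo7 by 0.20 ± 0.07, with limma adjusted p of 0.14 and 0.20. In transport, 0 of 6 passed, with Kif5b, a kinesin heavy chain, at -0.26 ± 0.09 and Armcx3 at -0.22 ± 0.08. At an unadjusted p under 0.05, limma gave 18% of all genes by brightest probe set. By list it gave 4 of 21 inner membrane genes, 4 of 15 accessory fission factors, 1 of 9 fusion factors, 2 of 9 quality control genes, 2 of 6 transport genes and 3 of the 10 regulators described next, in all 16 of 69.

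Of 10 coactivators and transcription factors listed with Mfn2 regulation, 2 fell, against 1.45% of all genes by brightest probe set, and 8 did not pass. Both were myocyte enhancer factors, which drive muscle genes. Mef2c averaged 9.52 in DOR siRNA and 11.05 in scrambled (difference -1.53 ± 0.16, limma adjusted p = 0.0014). Mef2a averaged 11.99 in DOR siRNA and 12.41 in scrambled (-0.42 ± 0.09, limma adjusted p = 0.035), and the call ended without any 1 of scrambled 1, 2 and 3 or of the DOR siRNA arrays (adjusted p of 0.055 to 0.11). The other 8 are named after their values were seen, and 7 of them had a negative difference, against 49.3% of all probe sets. The coactivators Ppargc1a, which encodes PGC-1α, and Ppargc1b differed by -0.40 ± 0.24 and -0.20 ± 0.10. Of their nuclear receptor partners Esrrg differed by -0.95 ± 0.51, Esrrb by -0.09 ± 0.10 and Esrra by 0.07 ± 0.11. Mef2d differed by -0.20 ± 0.09, Nrf1 by -0.13 ± 0.08 and Gabpa by -0.08 ± 0.08, and limma adjusted p lay between 0.32 and 0.87 over the 8.

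Markers of the state of the culture moved with the Mfn2 result. Of 20 myotube markers 10 fell, against 1.45% of all genes by brightest probe set, and 0 rose, with a median of -0.63. Mef2c is among the 20 and also among the regulators above. The mean level of the 20 lay between 11.09 and 11.57 in the DOR siRNA arrays, against 12.01 to 12.35 in the scrambled ones. Of 11 measured markers of undifferentiated and cycling myoblasts 8 rose, against 3.11% of all genes, and 0 fell. Their mean levels were 8.68 to 8.88 in DOR siRNA and 7.96 to 8.15 in scrambled. Of 6 fibroblast markers 1 rose, Pdgfra (0.57 ± 0.12), with a list median of 0.36. Of these markers 5 of 6 differences were positive. An unadjusted limma p under 0.05 was found for 4 of 6, against 18% of all genes, among them Dcn (0.56 ± 0.15) and Lum (0.52 ± 0.16). Of the osteoblast markers 0 of 3 measured passed or had an unadjusted limma p under 0.05. The part of these markers in the difference of Mfn2 was not tested, and in bulk samples fewer cells of a type and less RNA per cell cannot be told apart.

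**Figure D5:**
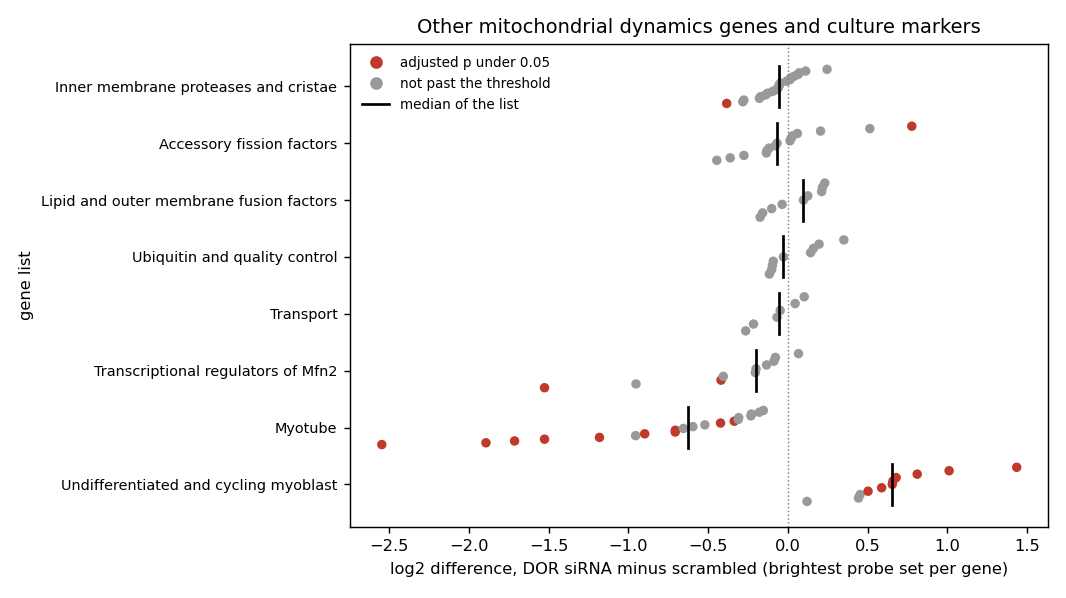
Log2 difference, DOR siRNA minus scrambled (x axis), of the brightest probe set of each gene in 6 lists of mitochondrial dynamics genes and 2 lists of culture markers (y axis), red where the limma adjusted p was under 0.05, with a black line at each list's median. The dynamics lists centre near 0 except that of regulators (median -0.20), while myotube markers lie at or below 0 (median -0.63) and cycling markers above it (median 0.66).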

How the data were processed

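The authors deposited log2 RMA values per probe set for 8 1-colour Affymetrix arrays, per the submitters' processing notes; 25 ng of total RNA per sample had been amplified with a whole transcriptome kit, per the labels' protocols. The version of RMA is not given in the sources used here. RMA equalises the arrays' distributions, so a shift of all transcripts one way would not be visible. Array medians lay between 6.14 and 6.20, and correlations between arrays between 0.988 and 0.997.

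Leaving out 64 control probe sets, 45037 were tested. The platform annotation, matched to RefSeq, gave 1 symbol to 34945, several to 932 and none to 9160. Groups were compared with limma 3.58.1 (R 4.3.3) with the group alone in the model, eBayes and Benjamini-Hochberg adjustment. Within-array differences were tested by exact permutation over the 70 assignments of 4 against 4. In simulated data of 45037 probe sets, 46.2% of changes of 0.5 log2 units and 93.8% of changes of 1 were recovered, and 5.56% of calls were false. In that simulation few probe sets changed and the noise was normal and independent between arrays. It held no link between same-numbered arrays and no array standing apart, so these rates may not hold for the data. The number of arrays limits the precision.

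Same-numbered arrays share a letter in their labels. Their deviations from the group means correlated at 0.142 to 0.468 in all 4 pairs (others -0.394 to 0.265). The calls rest on the unpaired fit. A blocked fit by replicate number is given beside it wherever the call of a member probe set changes. For the further dynamics genes only the number called is given, and for the culture markers no blocked fit is given. Members, lists, tests and alternatives were chosen with earlier results of these data known. Every member was named; of the other lists, the called genes or else the 2 with the smallest p. Alternatives were the replicate block, each array left out, dim probe sets left out, a variance trend with a robust prior, cyclic loess, an actin 3′ minus 5′ covariate and the mean over probe sets. Promoter windows came from RefSeq.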

Additional observations from a re-analysis of the deposited data

Results flagged for a closer look

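Among 54 sets of 4 values examined, 3 had a sample farther from the rest than Dixon's criterion for 4 values allows (the ratio of its gap to the range is given), where chance alone gives about 1 in 20. DOR siRNA 2 was far below the other DOR siRNA arrays in 1418768_at of Opa1 (ratio 0.911) and in 1452638_s_at of Dnm1l (ratio 0.905). Scrambled 2 was far above the other scrambled arrays in 1434712_at of Mief1 (ratio 0.936), at 9.08 against 8.90 to 8.92.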

How the results depend on the processing

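The fall of the brighter Mfn2 probe set kept its direction and call under every alternative run. Its differences were -0.92 to -0.74, with limma adjusted p of 0.00164 to 0.0405. The mean over both Mfn2 probe sets (-0.42) also passed, but it largely restates the fall of the brighter one. The number of the 22 probe sets called was 1, but 2 with the replicate block and 3 with the actin covariate, both adding Dnm1l, and 1 whichever array was left out. Pairing the cultures by number gave 2827 calls over all probe sets in place of 1452, and the actin covariate 2964; leaving out 1 array gave 608 to 2310, within 1.5 times of 1452 without DOR siRNA 2 or 4 only. The further dynamics genes called numbered 4, with 2 to 4 when an array was left out, and 6 with the replicate block. In the paired sign-flip test the within-array shifts of Mfn2 against Mfn1 (-0.76) and against its dimmer probe set (-0.79) are the same by construction, and the p of 0.125 is the smallest it allows. With an array left out the first ranged from -0.85 to -0.67 with an exact permutation p of 0.029 throughout. The second ranged from -0.95 to -0.71, with exact permutation p of 0.029 without any 1 scrambled array and 0.057 without any 1 DOR siRNA array. Differences near 0 changed sign as arrays were left out: 1451900_at of Mfn2 (-0.058 to 0.050), Oma1 (-0.036 to 0.105), 1428008_at of Dnm1l (-0.045 to 0.105), 1456582_x_at of Mff (-0.053 to 0.0028) and 1434712_at of Mief1 (-0.036 to 0.059). The cause of these shifts was not tested. No detection calls were used, so the 4 dim probe sets limit what can be said of their differences.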
